A study of Mus musculus with 16 samples.

Results

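The 10 genes described here encode the proteins by which a CD8+ T cell is recognised at its surface. They are Cd8a and Cd8b1, the chains of the CD8 coreceptor; Cd3d, Cd3e, Cd3g and Cd247, the signalling chains of the CD3 complex; and Thy1, Cd2, Cd5 and Cd7, surface proteins that T cells carry beside the receptor. They were picked by symbol from a raw count table of 24394 genes, and all 10 passed the filter on low counts that left 14862 genes for testing.

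The T cell receptor binds a peptide held by an MHC molecule but cannot signal by itself. The CD3 delta, epsilon, gamma and zeta chains carry the tyrosine motifs that are phosphorylated by the kinase Lck, and CD8 brings Lck to the complex by binding MHC class I. CD2 is an adhesion receptor that adds to activation, CD5 is known to restrain receptor signals, CD7 is an immunoglobulin-family protein of T and NK cells, and THY1 is a glycolipid-anchored protein used in the mouse as a pan-T cell marker.

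The RNA came from bone marrow CD8+ T cells purified by flow sorting, all from animals with immune marrow failure. BAR libraries came from such mice that were given baricitinib, which blocks the kinases JAK1 and JAK2, and BMF libraries from such mice without the drug. At day 14 after induction there were 3 BAR and 3 BMF libraries, and at day 10 there were 5 BAR and 5 BMF libraries. No healthy or non-failing mice were among the groups. Mouse strain, age, the way failure was induced and the dose of the drug: none of this is given in the sources used here. The design text speaks of pooled cells and does not tie the libraries of a group to different animals. The p-values therefore describe the scatter of libraries, which may be technical.

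The smallest library held 26134894 counts and the largest 58823116. Cd4, the coreceptor of the other main T cell class, lay between 0.519 and 5.92 CPM in all 16 libraries. CPM is a level relative to the effective size of the library after TMM scaling. Cd8a lay between 569.8 and 941 CPM. Low Cd4 bears on CD4 T cells only and does not show that the sorted cells were pure. The neutrophil marker S100a8 lay between 10147 and 15288 CPM in BAR and between 960.1 and 6602 CPM in BMF at day 14. At a common depth of 26066991 counts, 15386 to 15598 genes were detected in BAR and 14910 to 15268 in BMF at day 14, against 17655 to 20983 in BAR and 17273 to 20671 in BMF at day 10. BAR day 10 replicate 3 stood apart from its group, with the lowest Cd7, the lowest sum of T cell reference genes and the highest B cell and dendritic cell marker sums.

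Several of the genes are neighbours in the mouse genome (GRCm38, GENCODE vM21). Cd8b1 (chr6:71322788-71337494, plus strand) and Cd8a (chr6:71373427-71379173, plus strand) are 35932 bases apart. Cd3g (chr9:44969572-44980431, minus strand) and Cd3d (chr9:44981786-44987339, plus strand) run away from each other from starts 1355 bases apart, and Cd3e (chr9:44998740-45009627, minus strand) ends 11400 bases beyond Cd3d. Cd247 is at chr1:165788681-165877277 (plus strand), Thy1 at chr9:44043384-44048579 (plus strand), Cd2 at chr3:101275899-101287939 (minus strand), Cd5 at chr19:10717116-10739002 (minus strand) and Cd7 at chr11:121036747-121039418 (minus strand). Of the exons of Cd247, 56.4% overlap those of Pou2f1 on the other strand, and 10.8% of the exons of Cd7 overlap an antisense transcript, Gm11775. The use of strand in the counting is not given, so the values of Cd247 in particular are uncertain; Pou2f1 itself lay between 11.6 and 22.7 CPM.

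RefSeq promoter windows (GRCm38.p6) matched 6 of the 10 genes: Cd8a, Cd3d, Cd3e, Cd3g, Cd247 and Cd5. The 250 bases before the RefSeq start are shown for the 3 clustered CD3 genes and for Cd8a, because these genes share a complex or a coreceptor and their levels are set side by side below. Capitals mark matches, on either strand, to the ETS motif AGGAAG, the RUNX motif TGTGGT, the E-box CAGCTG, the GATA motif AGATAA and the TCF and LEF motif TCAAAG; no matches overlapped.
Cd3g, chr9:44980432-44980681, minus strand: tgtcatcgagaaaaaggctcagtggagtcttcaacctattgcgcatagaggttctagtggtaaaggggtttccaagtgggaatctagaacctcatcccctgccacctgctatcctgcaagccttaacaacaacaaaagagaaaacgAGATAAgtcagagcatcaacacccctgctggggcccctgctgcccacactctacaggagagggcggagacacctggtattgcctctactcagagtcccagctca
Cd3d, chr9:44981536-44981785, plus strand: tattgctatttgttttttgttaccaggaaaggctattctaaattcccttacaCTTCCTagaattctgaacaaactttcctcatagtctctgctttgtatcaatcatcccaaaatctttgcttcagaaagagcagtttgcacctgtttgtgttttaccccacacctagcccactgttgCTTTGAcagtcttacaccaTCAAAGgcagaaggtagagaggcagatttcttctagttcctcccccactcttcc
Cd3e, chr9:45009612-45009861, minus strand: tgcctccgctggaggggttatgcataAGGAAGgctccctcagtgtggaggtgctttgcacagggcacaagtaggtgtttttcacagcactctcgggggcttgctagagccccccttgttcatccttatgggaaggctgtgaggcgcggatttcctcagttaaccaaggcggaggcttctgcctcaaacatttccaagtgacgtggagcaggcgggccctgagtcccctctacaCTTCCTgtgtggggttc
Cd8a, chr6:71373177-71373426, plus strand: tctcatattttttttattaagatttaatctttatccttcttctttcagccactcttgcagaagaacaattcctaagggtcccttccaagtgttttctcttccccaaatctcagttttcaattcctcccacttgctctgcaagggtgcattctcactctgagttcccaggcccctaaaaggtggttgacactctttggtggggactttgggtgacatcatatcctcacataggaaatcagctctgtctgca
The Cd3e window held 2 ETS matches, the Cd3d window 1 ETS match and 2 TCF and LEF matches, and the Cd3g window 1 GATA match. The Cd8a window held none of these letters, Cd247 held 1 ETS match and Cd5 held 2. Among 32851 promoter windows of the same length, 29.5% held the ETS motif, 14.0% the RUNX motif, 9.99% the GATA motif and 13.8% the TCF and LEF motif; the E-box was in 4271 of the windows. These matches describe the letters and do not mark bound sites.

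Per kilobase of exon, Cd8b1 was the most abundant of the 10 genes in each group and Cd5 the least. Cd8b1 averaged 568.4 ± 19.8 CPM per kb in BAR and 801 ± 152 in BMF at day 14 (SD, n = 3 each), and 573 ± 66.9 in BAR and 599 ± 50.2 in BMF at day 10 (SD, n = 5 each). Cd5 averaged 14.3 ± 1.2 CPM per kb in BAR and 21.0 ± 0.7 in BMF at day 14, and 19.0 ± 2.5 in BAR and 19.6 ± 1.0 in BMF at day 10. Between these stood Cd3d, Cd3g, Cd2 and Cd7, then Cd3e, Cd8a, Thy1 and Cd247 in that order. Ranges of Cd3e and Cd8a overlapped in both day 10 groups and not at day 14, while Cd8a, Thy1, Cd247 and Cd5 were separated from one another in all 4 groups. Cd7 changed its place most: it averaged 307 ± 73.3 CPM per kb in BAR at day 14, at rank 5 of 10, and 775 ± 76.5 in BMF at day 14, at rank 2, where its range overlapped those of Cd8b1 and Cd3d.

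**Figure D1:**
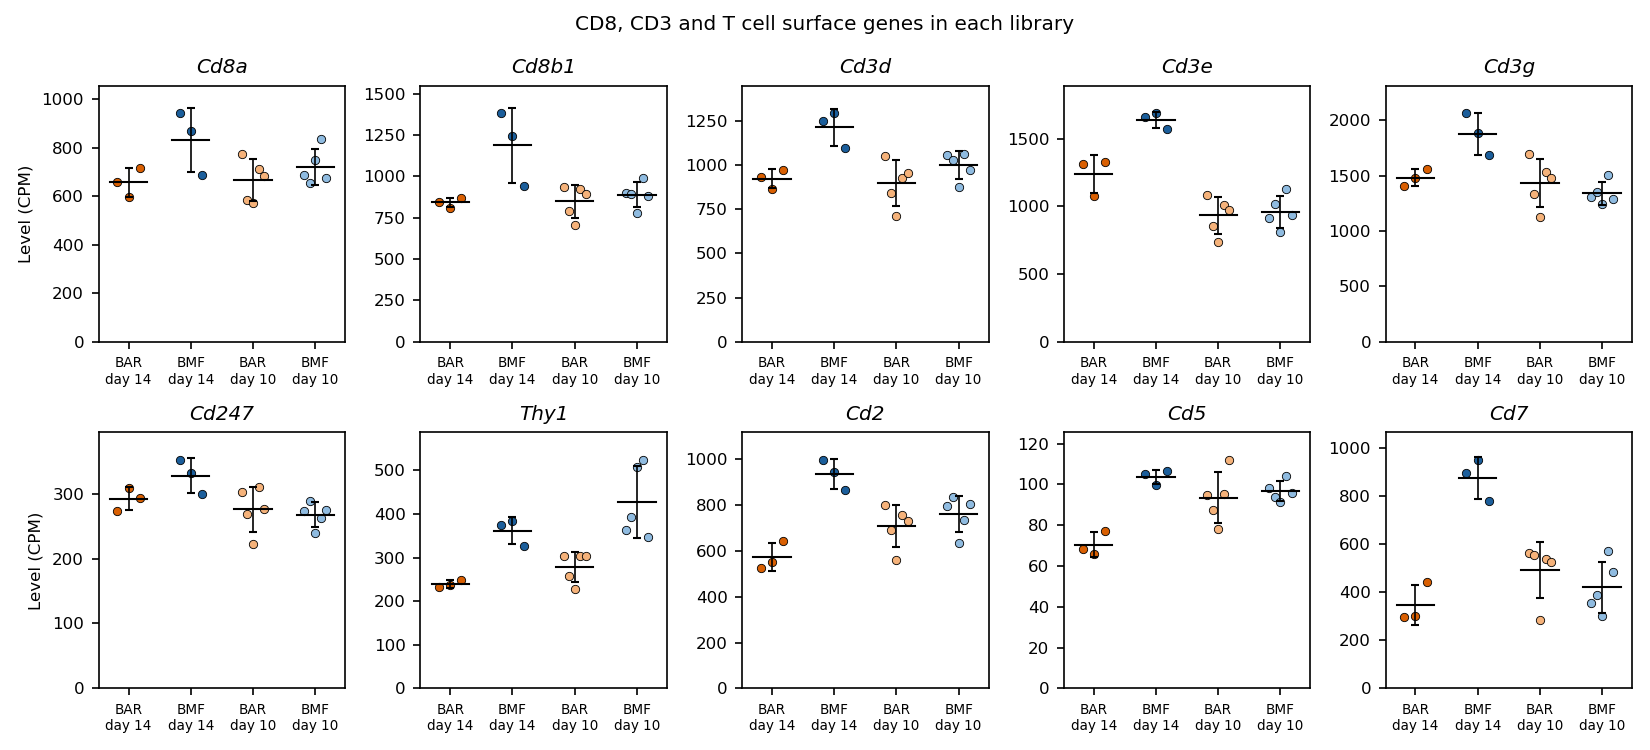
Level in CPM (TMM scaled, linear axis from 0) of each of the 10 genes in each of the 16 libraries, by group, with the group mean (line) and SD (bar). At day 14 the 3 BAR libraries lay below the 3 BMF libraries for 8 of the genes; the exceptions were Cd8a and Cd247, whose ranges overlapped.

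At day 14 each of the 10 genes had a lower mean in BAR than in BMF, and 7 of them passed the test: Cd8b1, Cd3d, Cd3e, Thy1, Cd2, Cd5 and Cd7. Of all genes tested, 25.2% were called in this comparison, and 12.2% of all genes tested were called lower in BAR. The median log2 fold change over the 10 genes was -0.45, against -0.01 over all genes tested. For 8 of the genes no BAR library reached the lowest BMF library; 21.5% of all genes were separated in that direction. In a bulk sample, fewer T cells and less T cell RNA per cell cannot be told apart.

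CD8 is displayed as a pair of alpha chains or as an alpha and a beta chain. Cd8a had 657, 597 and 716 CPM in the 3 BAR libraries and 941, 869 and 686 CPM in the 3 BMF libraries. The ranges overlapped because BMF replicate 3 was low, and the difference of -0.34 on the log2 scale did not pass (SE 0.134, adjusted p = 0.0694). Cd8a passed in 2 of the alternative fits listed below and did not in 16. Cd8b1, which needs the alpha chain to reach the surface, had 847, 812 and 870.3 CPM in BAR and 1381, 1241 and 939.8 CPM in BMF. The groups did not overlap, BMF replicate 3 was again the lowest of its group, and Cd8b1 was lower in BAR by the edgeR test (log2 fold change -0.49, SE 0.131, adjusted p = 0.0110).

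Among the CD3 chains, Cd3d had 933, 864 and 970.4 CPM in BAR and 1248, 1291 and 1095 CPM in BMF, without overlap (log2 fold change -0.39, SE 0.122, adjusted p = 0.0254). Cd3e, the chain around which the CD3 pairs assemble, had 1317, 1079 and 1327 CPM in BAR and 1661, 1688 and 1569 CPM in BMF, again without overlap (-0.40, SE 0.136, adjusted p = 0.0383). Cd3g had 1408, 1474 and 1561 CPM in BAR and 2060.4, 1885 and 1682 CPM in BMF. Its groups were also apart, but its log2 fold change of -0.34 did not pass (SE 0.126, adjusted p = 0.0553). Cd3g passed in 4 of the alternative fits and did not in 14. Cd247, the zeta chain with the most signalling motifs, had 274, 309 and 293 CPM in BAR and 352, 332 and 299 CPM in BMF, and the groups overlapped (-0.17, SE 0.110, adjusted p = 0.285).

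The surface proteins outside the receptor showed the larger differences. Cd7 had 298, 302 and 443 CPM in BAR and 898, 952 and 783 CPM in BMF, the largest difference among the 10 genes (log2 fold change -1.34, SE 0.264, adjusted p = 0.00252). Cd2 had 528, 553 and 642 CPM in BAR and 998, 944 and 865 CPM in BMF (-0.70, SE 0.127, adjusted p = 0.000739). Thy1 had 232, 238 and 248.8 CPM in BAR and 374.5, 385 and 327 CPM in BMF (-0.60, SE 0.148, adjusted p = 0.00710). Cd5 had 68.4, 65.9 and 77.2 CPM in BAR and 104.9, 99.9 and 106.4 CPM in BMF (-0.56, SE 0.104, adjusted p = 0.00101). None of these 4 genes had a BAR library that reached the BMF range. Leaving out BMF replicate 1 or BMF replicate 2 at day 14 left Cd7, Cd2, Thy1 and Cd5 called and left Cd8b1, Cd3d and Cd3e uncalled. Of all genes, 1171 and 1010 were then called lower, against 1815 in the main fit.

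RNA of other marrow cells moved with the same groups. The 16 neutrophil markers in the table summed to 47749, 52025 and 39753 CPM in BAR and 2866, 16320.3 and 22793 CPM in BMF at day 14. S100a8 was the largest of those printed here, with 10147 to 15288 CPM in BAR and 960.1 to 6602 CPM in BMF. Monocyte markers summed to 3557 to 4383 CPM in BAR and 524 to 1626 CPM in BMF, and erythroid markers to 663 to 1304 CPM in BAR and 12.5 to 24.7 CPM in BMF, with Hba-a1, Hba-a2, Hbb-bs and Hbb-bt at 0 in every library. Markers of mast cells, basophils and eosinophils summed to 320 to 674 CPM in BAR and 2.36 to 38.9 CPM in BMF, and those of dendritic cells to 1396 to 1666 CPM in BAR and 654 to 814 CPM in BMF. Of the 12 marker lists, 11 were apart in the groups, each with an exact two-sided permutation p of 0.1, the smallest that 3 against 3 libraries can give (adjusted p = 0.109). By the edgeR test, 8 of 8 erythroid and 9 of 9 mast cell, basophil and eosinophil markers tested were higher in BAR, against 0 of 16 neutrophil markers (6 of them at an unadjusted p under 0.05). The single genes of other lists did not follow their sums. Of 16 monocyte markers, 4 were higher and 6 lower in BAR. Of 15 dendritic cell markers edgeR called 0 higher and 1 lower (7 at an unadjusted p under 0.05). Natural killer markers summed to 582 to 644 CPM in BAR and 285 to 427 CPM in BMF. Of the 6 tested, 1 was higher and 3 lower in BAR. Within BMF at day 14, replicate 3 had the highest neutrophil sum and the lowest level of 9 of the 10 genes, while Cd5 was highest there. Replicate 1 had the lowest neutrophil sum and the highest Cd8a, Cd8b1, Cd3g, Cd247 and Cd2, while Cd3d, Cd3e, Thy1 and Cd7 were highest in replicate 2.

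**Figure D2:**
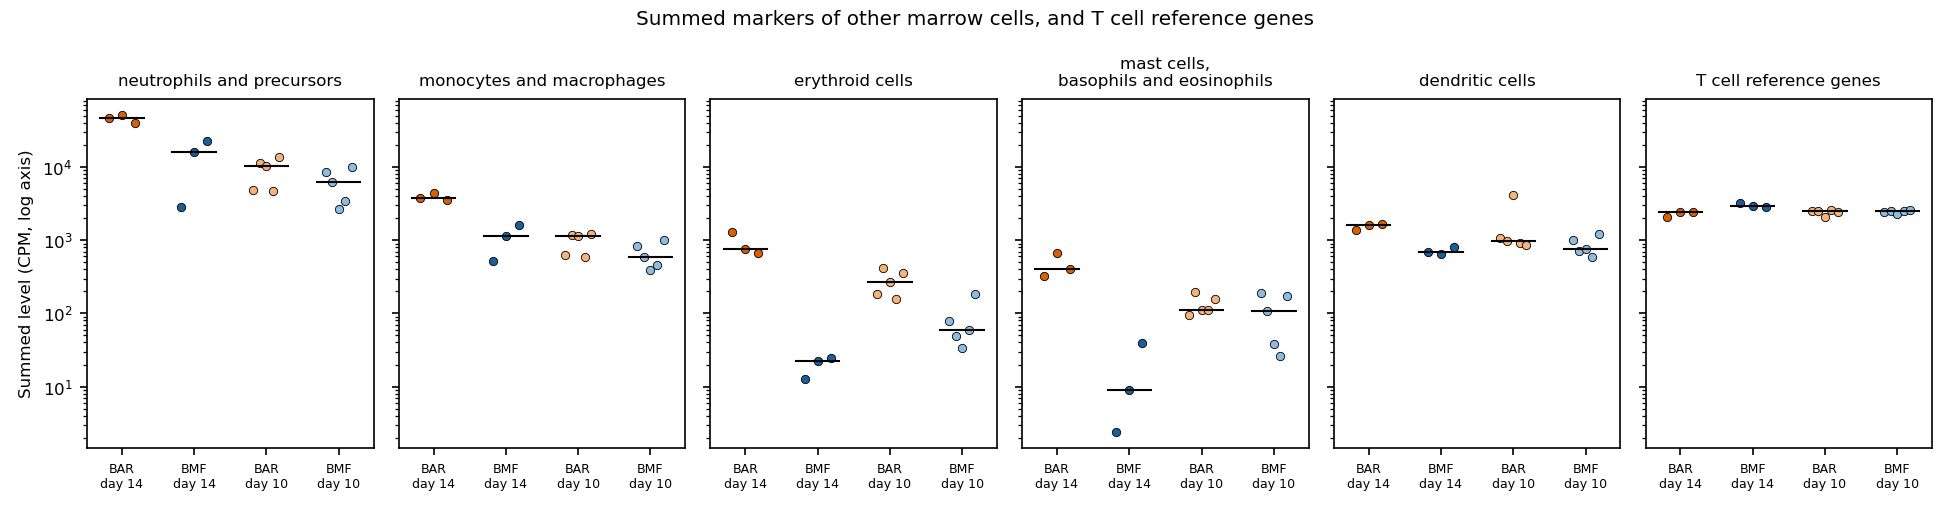
Summed CPM (log axis) of 5 marker lists of other marrow cells and of 7 T cell reference genes in each library, with the group median as a line. At day 14 the neutrophil sum lay between 39753 and 52025 CPM in BAR, above 2866 to 22793 CPM in BMF, while the T cell reference sum lay between 2091 and 2468 CPM in BAR, below 2849 to 3206 CPM in BMF.

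The 7 reference genes, receptor signalling proteins and surface partners made by T cells such as Lck, Lat, Zap70 and Cd6, show how the 10 genes stood relative to other T cell transcripts. Scaled by their summed counts in place of TMM, the median log2 fold change of the 10 genes at day 14 was -0.06, and that of all genes was 0.35. Of the 10 genes, 2 were then lower in BAR and 1 higher, where 1.49% of all genes were lower and 38.8% higher. Cd7 (-0.97, SE 0.207, adjusted p = 0.00183) and Cd2 (-0.33, SE 0.0924, adjusted p = 0.00907) remained lower. Cd247 was higher (0.21, SE 0.0783, adjusted p = 0.0405), against -0.17 under TMM. The others lay between -0.22 for Thy1 and 0.05 for Cd8a and did not pass. With the neutrophil sum as a covariate, Cd7, Cd2 and Cd5 passed at -1.23 (SE 0.342), -0.65 (SE 0.164) and -0.55 (SE 0.137). With the sum of all non-T, non-NK markers as a covariate, Cd2 (-0.62) and Cd5 (-0.53) passed, and Cd7 stood at -1.15 (SE 0.350, adjusted p = 0.0792). Of all genes, 519 were called higher and 475 lower with the neutrophil covariate, and 385 and 339 with the other-cell covariate. Both sums were apart between the arms at day 14, the wider one at 46182 to 59584 CPM in BAR and 4193 to 25382 CPM in BMF. The covariate fits therefore cannot separate other-cell RNA from the arm, and its part in the day 14 differences was not tested.

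**Figure D3:**
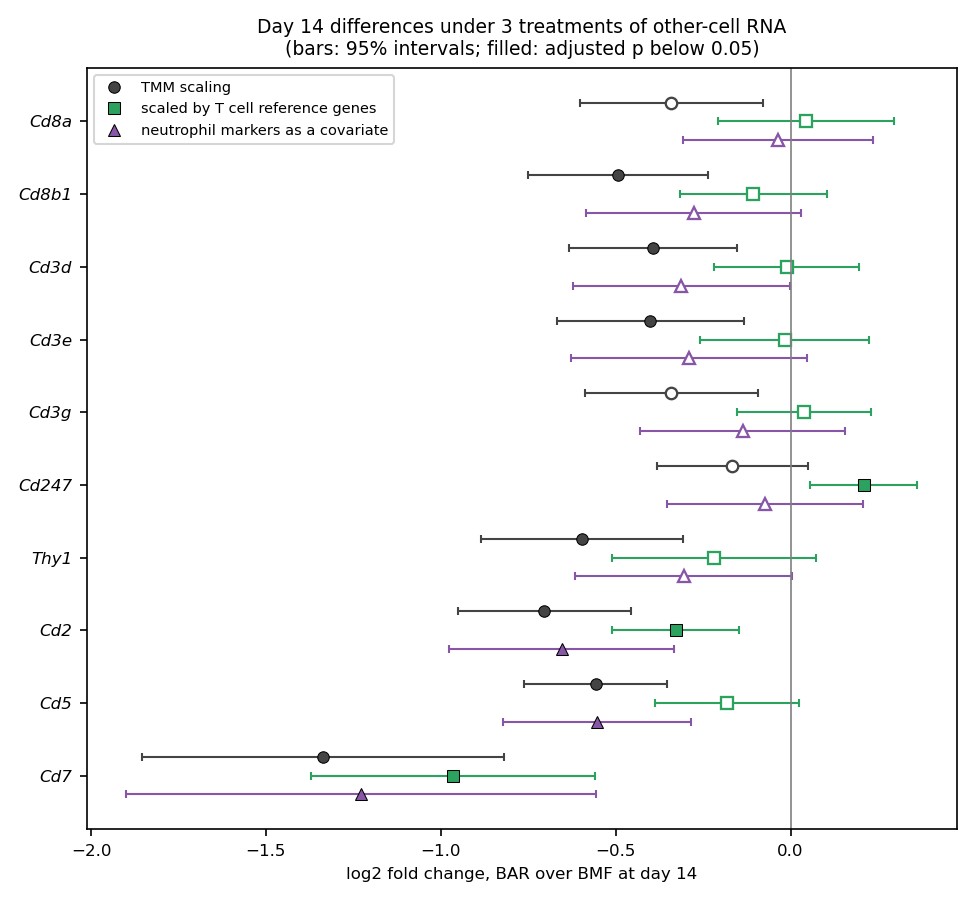
Log2 fold change, BAR over BMF at day 14, for each gene under TMM scaling, under scaling by T cell reference genes and with neutrophil markers as a covariate; bars are 95% intervals and filled symbols passed the threshold. Cd7 and Cd2 stayed filled in all 3, at -1.34, -0.97 and -1.23 for Cd7 and -0.70, -0.33 and -0.65 for Cd2.

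Ratios of counts within a library do not depend on its scaling. At day 14 the log2 ratio of Cd7 to Cd3e averaged -1.86 ± 0.28 in BAR and -0.91 ± 0.09 in BMF (SD, n = 3 each), and that of Cd2 to Cd3e averaged -1.11 ± 0.19 in BAR and -0.81 ± 0.07 in BMF. These were the only 2 of 9 ratios to Cd3e whose ranges did not overlap, both lower in BAR; of all genes, 3.33% were lower relative to Cd3e without overlap. Cd8b1 relative to Cd8a lay between 0.28 and 0.44 on the log2 scale in BAR and between 0.45 and 0.55 in BMF. These ranges nearly touched, at 0.442 in BAR and 0.453 in BMF, and the difference was not tested. With Cd3d or Cd3g in place of Cd3e, 4 and 5 of 9 ratios were apart, of which 3 and 4 were lower in BAR, and the ratio of Cd7 was lower in BAR under each. The share of all genes apart relative to Cd3d or Cd3g was not computed, so nothing is read from these counts.

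At day 10 Thy1 was the one gene of the 10 that passed between the arms, and it was lower in BAR. Of all genes tested, 14.4% were called and 7.94% were called lower. Thy1 had 303, 257, 227, 304 and 303 CPM in the 5 BAR libraries and 363.5, 393, 507, 524 and 347 CPM in the 5 BMF libraries. The groups did not overlap, and the log2 fold change was -0.61 (SE 0.114, adjusted p = 0.00280); 4.11% of all genes were apart with BAR lower. The log2 ratio of Thy1 to Cd3e was -1.74 ± 0.06 in BAR and -1.18 ± 0.31 in BMF (SD, n = 5 each), the one ratio of 9 that was apart, where 3.32% of all genes were.

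The other 9 genes lay between -0.15 for Cd3d and 0.23 for Cd7 on the log2 scale, and their groups overlapped. Cd8a had 774, 586, 569.8, 713 and 685 CPM in BAR and 686, 656, 750.0, 835 and 673 CPM in BMF. Cd3e had 1086, 859, 738, 1014 and 972 CPM in BAR and 912, 1018, 811, 1126 and 934.5 CPM in BMF. The BAR libraries of Cd7 held 564, 555, 287, 538 and 528 CPM, and its BMF libraries 357, 389, 301, 571 and 484 CPM. In each of these genes BAR replicate 3 was the lowest of its group.

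Ribosomal precursor RNA (Rn45s) took 1.22% to 1.43% of the counts in the BAR libraries and 1.15% to 5.81% in the BMF libraries at day 10. In order of replicate, the BMF libraries had Rn45s shares of 5.53%, 4.83%, 5.81%, 2.73% and 1.15%. Their Thy1 levels, given above, did not follow that order. Replicate 5 was the lowest in both, but Thy1 was highest in replicate 4. With Rn45s as a covariate the Thy1 log2 fold change was -0.50 (SE 0.158, adjusted p = 0.244). In that fit 30 of all 14862 genes were called higher and 36 lower at day 10, against 965 and 1180 in the main fit. The loss of the call was therefore not particular to Thy1. With a term that splits the day 10 libraries by the number of genes detected the Thy1 log2 fold change was -0.66 (SE 0.111, adjusted p = 0.00193), and without any 1 library it stayed past the threshold. Summed B cell markers were 41.2 to 497 CPM in BAR and 15.8 to 31.9 CPM in BMF. Natural killer markers summed to 336 to 462 CPM in BAR and 240.4 to 329 CPM in BMF. Each had an exact two-sided permutation p of 0.00794 (adjusted p = 0.0476). By the edgeR test, 12 of 14 B cell markers and 1 of 6 natural killer markers were higher in BAR, where 6.49% of all genes were. Neutrophil markers overlapped, with 4745 to 13692 CPM in BAR and 2649 to 9894 CPM in BMF. The Rn45s covariate and the genes-detected term do not measure B or natural killer cells. The sum of all non-T, non-NK markers holds the B cell list, but neutrophil markers make up most of it. With that sum as a covariate Thy1 was still called lower at day 10, where 593 of all genes were higher and 690 lower. The part of B and natural killer cells in the Thy1 difference was not tested. The part of Rn45s was not tested beyond its fit.

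**Figure D4:**
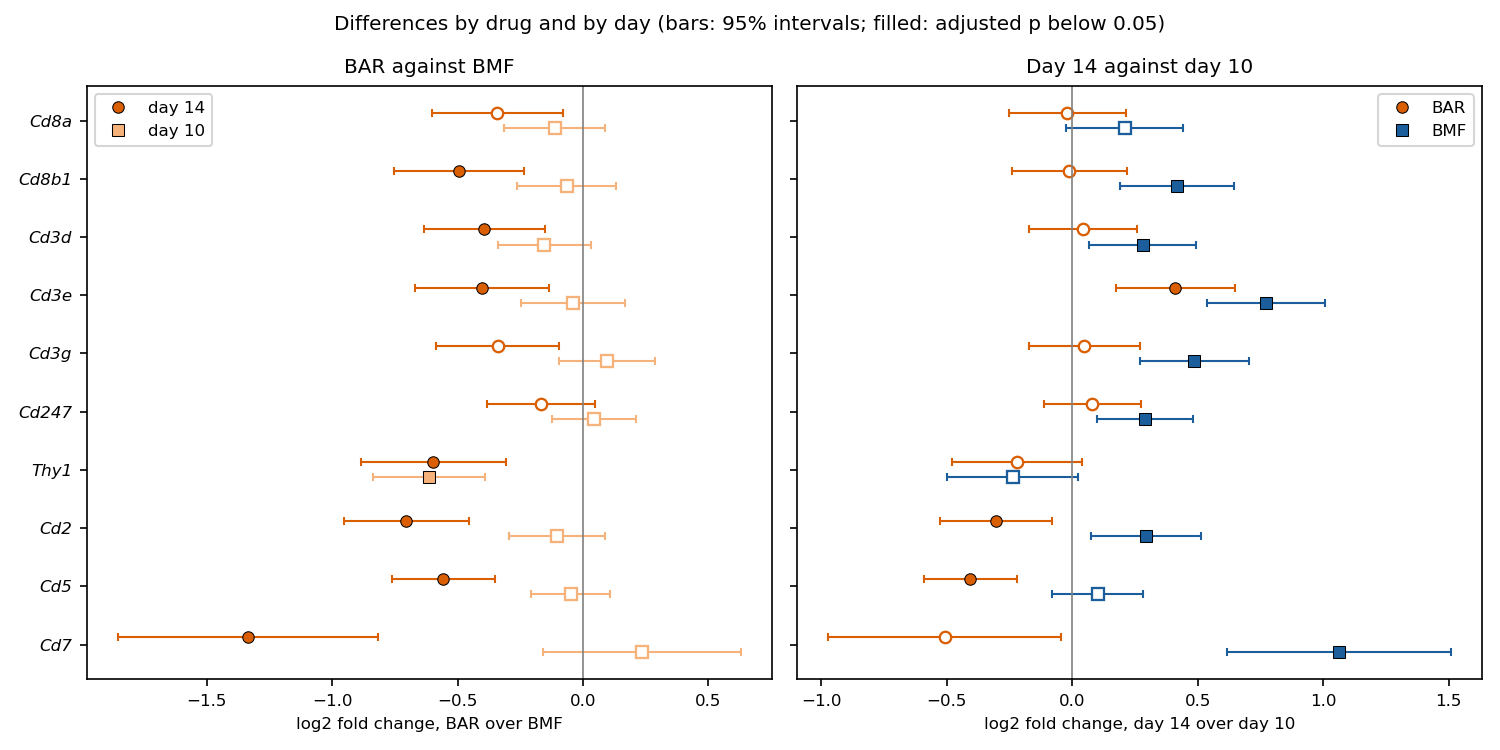
Log2 fold changes of the 10 genes, BAR over BMF at each day (left) and day 14 over day 10 in each arm (right), with bars of 95% intervals; filled symbols passed the threshold. Thy1 was lower in BAR at both days, at -0.60 at day 14 and -0.61 at day 10, while Cd7 stood at -1.34 at day 14 and 0.23 at day 10.

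The difference between the arms was itself compared between the days. Cd7 had a day 14 minus day 10 difference of -1.57 (SE 0.331, adjusted p = 0.0104), Cd2 one of -0.60 (SE 0.159, adjusted p = 0.0240) and Cd5 one of -0.51 (SE 0.132, adjusted p = 0.0210). These were 3 of the 10 genes, where 10.3% of all genes were called and 5.33% lower. The Thy1 difference was 0.02 (SE 0.186, adjusted p = 0.984). Its 95% interval, from -0.35 to 0.38, holds both larger and smaller effects at day 14. Scaled by the T cell reference genes, Cd7 alone passed (-1.22, SE 0.261, adjusted p = 0.00620), with 0.908% of all genes lower.

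The day comparisons use the same libraries as the comparisons between arms, so the values are given side by side and are not independent. Within BMF, 7 of the 10 genes were higher at day 14 than at day 10, where 38.5% of all genes were called and 17.6% higher. Cd7 had the largest rise (1.06, SE 0.228, adjusted p = 0.00264), ahead of Cd3e (0.77, SE 0.120, adjusted p = 0.000124), as log2 fold changes. Cd3g (0.49), Cd8b1 (0.42), Cd2 (0.30), Cd247 (0.29) and Cd3d (0.28) also rose. Thy1 (-0.24), Cd8a (0.21) and Cd5 (0.10) did not pass. The lowest day 14 library stood above the highest day 10 library for 6 of the 10 genes, where 17.1% of all genes did. Leaving out BMF day 10 replicate 3, BMF day 14 replicate 1 or BMF day 14 replicate 2 left 4, 3 and 4 genes called. Of all genes, 2281, 2227 and 2142 were then called higher, against 2623 in the main fit.

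Scaled by the T cell reference genes, Cd3e (0.49, SE 0.109) and Cd7 (0.78, SE 0.181) were higher and Thy1 lower (-0.53, SE 0.135) at day 14 in BMF, with 4.48% of all genes higher and 38.9% lower. Relative to Cd3e, 8 of 9 genes were lower at day 14 without overlap, the exception being Cd7, and 69.5% of all genes were lower in the same way. With Cd3d as denominator 4 of 9 were apart, 3 of them higher, but no share of all genes was computed for that denominator. Marker sums of neutrophils were 2866 to 22793 CPM at day 14 and 2649 to 9894 CPM at day 10, and erythroid sums were 12.5 to 24.7 CPM at day 14 and 34.0 to 185 CPM at day 10. Of the 12 lists, 0 passed by the exact permutation test in this comparison, and 3 had an unadjusted p of 0.0357.

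Within BAR, Cd3e was higher at day 14 than at day 10 (0.41, SE 0.121, adjusted p = 0.0127), and Cd5 (-0.41, SE 0.0943, adjusted p = 0.00301) and Cd2 (-0.30, SE 0.114, adjusted p = 0.0416) were lower. Of all genes, 39.1% were called, 19.2% higher and 19.8% lower. Cd5 alone was apart, with 65.9 to 77.2 CPM at day 14 and 78.2 to 112.0 CPM at day 10, where 21.2% of all genes were apart and lower. Cd7 stood at -0.51 (SE 0.237, adjusted p = 0.101) and passed at -0.66 (adjusted p = 0.0118) without BAR day 10 replicate 3. Without BAR day 14 replicate 1, Cd5 was the single gene called, where 2462 of 15703 genes were higher and 2672 lower. Cd8a (-0.02), Cd8b1 (-0.01), Cd3d (0.04), Cd3g (0.05) and Cd247 (0.08) lay close to 0. Neutrophil sums were 39753 to 52025 CPM at day 14 and 4745 to 13692 CPM at day 10 in this arm, and with them as a covariate edgeR called 0 of the 10 genes (3 at an unadjusted p under 0.05). That fit called 611 of all 14862 genes higher and 939 lower, against 2859 and 2949 in the main fit, so calls were lost over all genes.

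**Figure D5:**
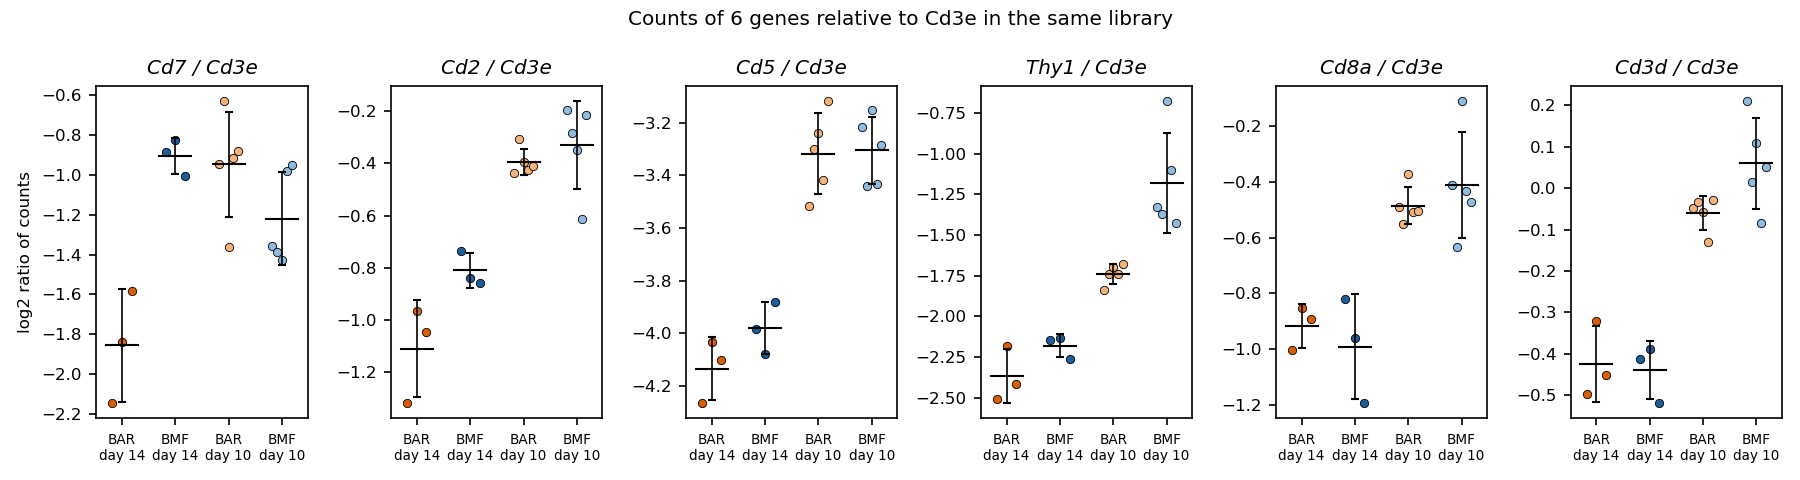
Log2 ratio of the counts of 6 genes to those of Cd3e in each library, with group mean and SD. Cd7 relative to Cd3e was lower in BAR at day 14 (mean -1.86) than in the other groups (means -0.91 in BMF at day 14, -0.95 in BAR and -1.22 in BMF at day 10), and Thy1 relative to Cd3e was lower in BAR than in BMF at day 10.

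Most receptor pathway genes outside the 10 were also lower in BAR at day 14. Of 23 genes tested for receptor chains and proximal signalling, 17 were lower in BAR at day 14, with a median log2 fold change of -0.46, where 12.2% of all genes tested were lower. At day 10, 6 were lower, where 7.94% of all genes were. Scaled by the T cell reference genes, 3 were lower and 3 higher at day 14, with a median of -0.08, where 1.49% of all genes were lower and 38.8% higher. The list shares Lck, Lat, Zap70 and other genes with the T cell reference genes, and the other-cell marker sums given above moved with it; their part was not tested. The kinase Prkcq averaged 129 ± 6.91 CPM in BAR and 206 ± 26.6 CPM in BMF at day 14 (SD, n = 3 each; log2 fold change -0.68). The adaptor Fyb (-0.54) and Prkcq (-0.35) were those with the smallest p at day 10. In BMF, 13 rose and 1 fell at day 14 against day 10, where 17.6% of all genes were higher and 20.9% lower, among them the phosphatase-like Ubash3a (0.69) and the phospholipase Plcg1 (0.64); Pag1 fell by 0.65. In BAR, 3 of the 23 were higher and 4 lower, which is below the 19.2% and 19.8% of all genes, so the counts say nothing particular about the list. Lcp2 (0.33) and Vav1 (0.29) were higher and Grap2 (-0.75) and Ptprcap (-0.71) lower. Ubash3a (-0.64) and Plcg1 (-0.68) differed between the days in the effect of BAR, and Pag1 did so in the other direction (0.87); with the reference scaling the Ubash3a and Plcg1 differences between days no longer passed.

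Other T cell surface genes were mixed. Of 22 tested, 11 were lower and 2 higher in BAR at day 14, where 12.2% of all genes were lower and 12.9% higher. At day 10, 4 were lower and 2 higher, where 7.94% of all genes were lower and 6.49% higher. Scaled by the T cell reference genes, 3 were lower and 4 higher at day 14, against 1.49% and 38.8% of all genes. Cd244 (-1.18) and Cd160 (-1.17), both receptors of activated T and NK cells, were lower in BAR at day 14, while Cd44, an adhesion receptor of activated and memory cells that myeloid cells also carry, was higher (0.51). Sialophorin Spn (-0.65) and Icos (-0.57) were lower in BAR at day 10, and Cd244 was higher (0.58). Between the days, 8 were higher and 1 lower at day 14 in BMF, against 17.6% and 20.9% of all genes, with Cd82 (0.75) and Cd37 (0.61) higher and Ctla4 (-1.66) lower. In BAR, 7 were higher and 8 lower, against 19.2% and 19.8% of all genes, with Cd44 (0.84) and Cd82 (0.77) higher and Ctla4 (-1.16) and Slamf7 (-0.60) lower. The BAR effect differed between days for Cd44 (0.95), Cd244 (-1.76) and Cd48 (-0.59). With the reference scaling the Cd48 difference did not pass.

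Of 14 transcription factors of T cell and CD8 lineage identity, 7 were lower in BAR at day 14, where 12.2% of all genes were. At day 10, 4 were lower and 1 higher, against 7.94% and 6.49% of all genes. Scaled by the T cell reference genes, 1 was lower and 3 were higher at day 14; 1.49% of all genes were lower and 38.8% higher, so the 3 of 14 higher lie below the share of all genes. Runx3 (-0.69), which maintains Cd8 expression in the CD8 lineage, and Ikzf1 (-0.47) were lower in BAR at day 14. Satb1 (-1.72) and Lef1 (-0.64) were lower and Tcf3 (0.25) higher at day 10. At day 14 against day 10, Ets1 (0.40) and Tox (0.34) rose and Satb1 (-0.78) fell in BMF; in BAR Patz1 (0.30) and Tox (0.30) rose and Runx3 (-0.37) and Cbfb (-0.30) fell. The BAR effect differed between days for Satb1 (1.25) and Runx3 (-0.65). With the reference scaling Ikzf1 at day 14, Tcf3 at day 10, Ets1 and Tox in BMF, Cbfb in BAR and the Runx3 difference did not pass.

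Over the 16 libraries, the gene that followed Thy1 most closely was Spn, with a root mean square difference of centred log2 CPM of 0.0953, followed by Gng2 (0.120) and Mllt6 (0.121), among 6915 genes that averaged at least 20 CPM. For Cd8a the closest were Zfp84 (0.0901), Tmem261 (0.0949) and Leprotl1 (0.0976), and Clstn1 (0.136) and Rbl2 (0.137) were among the 3 closest to Cd3e. Among the 10 genes, Cd8b1 (0.116) and Cd3d (0.120) were closest to Cd8a, and Cd7 (0.438) was farthest from it.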

How the data were processed

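The authors deposited a table of raw counts per gene symbol, not normalised. The aligner was HISAT2 2.0.5 and the build mm10, per the submitters' processing notes. How reads were counted, on which annotation and with or without strand, is not given in the sources used here. Libraries were made from polyA RNA with a SMART-Seq mRNA LP kit, per the labels. Of 24421 entries, 27 carried calendar dates in place of symbols and were left out (0.234% to 0.293% of counts). The table's 16 sample columns were each used.

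The main model was edgeR 4.0.16 in R 4.3.3, with the filter by group, TMM scaling and a quasi-likelihood model over all 16 libraries with a mean per group (common biological coefficient of variation 0.198). Each adjusted p of a gene is from this edgeR test, Benjamini-Hochberg over the 14862 genes tested, threshold 0.05. A gene is called higher or lower where it passed. The SE of a log2 fold change is its size over the square root of its F value. The steps were tested on simulated data with that coefficient for every gene and 200 changed genes. At a log2 change of 0.5, 13% of these were recovered at day 10 and 0% at day 14. At a change of 1, 100% and 76.5% were recovered. Small differences that did not pass are therefore not shown to be absent. The shares hold for that coefficient and not for each gene, as Cd3d (-0.39) and Cd3e (-0.40) passed at day 14. Marker sums were compared by exact permutation tests, adjusted over the 12 lists. No library was a copy of another, as chi-square over degrees of freedom was 11.2 to 347 in the 26 within-group pairs. Alternatives were size factors, no scaling, scaling by T cell reference genes, no filter, DESeq2 1.42.0, limma voom 3.58.1, covariates, fewer groups and leaving out each library.

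The 10 genes and the gene and marker lists were chosen with earlier results of these data known. Named genes were the 10 and, from each of 3 pathway lists, at most the 2 with the smallest p called in each direction per comparison; like-pattern genes were the 3 nearest to Cd3e, Cd8a and Thy1. Some genes that this rule names are not reported here.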

Additional observations from a re-analysis of the deposited data

Results flagged for a closer look

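In BAR at day 10, replicate 3 lay far from the other 4 libraries in several measures. Its Cd7 was the lowest at 287 CPM, where the other 4 held 528 to 564 CPM. Its T cell reference sum was the lowest at 2086 CPM. Its B cell marker sum was the highest at 497 CPM and its dendritic cell sum the highest at 4138 CPM. In the same group the lowest sum of CD4 and regulatory T cell markers was 87.8 CPM and the highest sum of megakaryocyte markers was 8.18 CPM. Of 48 groups looked at, 6 had such a library, all of them in BAR at day 10. For a single group the chance of this is about 1 in 20. The measures share the same libraries and are not independent, so the count is not compared with chance.

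The effect of BAR differed between the days for Cd7 (-1.57), Cd2 (-0.60) and Cd5 (-0.51 on the log2 scale), as the edgeR test of the difference itself showed (adjusted p = 0.0104, 0.0240 and 0.0210).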

How the results depend on the processing

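No paired analysis was possible because the labels give no replicate numbers, and the numbers used here follow the order of deposition. Genes called of the 10 are given as called here against the count in the report. At day 14, BAR against BMF, 3 were called with T cell reference scaling, 3 with the neutrophil covariate and 2 with the other-cell covariate (7 in the report). The Rn45s covariate called 5, DESeq2 and library totals less Rn45s 8 each, and the genes-detected term 9. Without 1 library it was 4 to 8. Over all genes, 1923 were higher and 1815 lower there in the main fit, and 5772 and 222 with T cell reference scaling. The neutrophil covariate gave 519 and 475, the other-cell covariate 385 and 339, and leaving out 1 library a total of 2119 to 3774. The Rn45s covariate gave 1588 and 1517, and DESeq2 2347 and 1952. Totals less Rn45s gave 1933 and 1706, and the genes-detected term 2147 and 2009. At day 10, 0 were called by edgeR with the Rn45s covariate (1 at an unadjusted p under 0.05, 1 in the report). Over all genes, that fit called 30 higher and 36 lower, against 965 and 1180 in the main fit. In BMF over time, 3 were called with T cell reference scaling, 4 with the Rn45s covariate and 3 with the genes-detected term (7 in the report). The neutrophil and other-cell covariates each called 8. Without 1 library it was 3 to 6. Over all genes, 2623 were higher and 3105 lower there in the main fit, and 666 and 5777 with T cell reference scaling. The Rn45s covariate gave 2303 and 2484, the genes-detected term 2060 and 2417, and leaving out 1 library a total of 4348 to 6241. The neutrophil covariate gave 2407 and 3082, and the other-cell covariate 2431 and 3134. In BAR over time, 0 were called by edgeR with the neutrophil covariate (3 at an unadjusted p under 0.05), 1 with the other-cell covariate and 5 with library totals less Rn45s (3 in the report), and 1 to 4 without 1 library. Over all genes, 2859 were higher and 2949 lower there in the main fit, and 611 and 939 with the neutrophil covariate. The other-cell covariate gave 616 and 1006, library totals less Rn45s 1961 and 4258, and leaving out 1 library a total of 3842 to 5624. For the difference of the BAR effect, 5 were called with library totals, with or without Rn45s, 1 with T cell reference scaling and 1 with the other-cell covariate (3 in the report), and 1 to 5 without 1 library. Without BAR day 14 replicate 2 it was 1, and without BAR day 10 replicate 3 it was 5. For that difference, 743 of all genes were higher and 792 lower in the main fit, and 546 and 1241 with library totals. Totals without Rn45s gave 602 and 1151, T cell reference scaling 2834 and 135, and the other-cell covariate 452 and 424. Leaving out 1 library gave a total of 679 to 2025.

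T cell reference scaling turned Cd247 at day 14 to 0.21 and Cd3d in BMF over time to -0.0076; signs were read only where 1 of the 2 fits passed. Ratios apart were 3 and 2 (to Cd3d and Cd3g) against 1 at day 10, 4 and 5 against 2 at day 14, 4 (to Cd3d) against 8 in BMF over time, and 4 and 4 against 8 in BAR over time. A share of all genes is given here only for ratios to Cd3e, and not for BAR over time, so the other counts are not read. Marker lists past the threshold at day 10 were 0 by mean log2 CPM (5 at an unadjusted exact permutation p under 0.05) against 2. Over all genes, the day 10 count was 66 (Rn45s covariate) to 3007 (library totals), and the day 14 count 724 (other-cell covariate) to 5994 (T cell reference scaling). Library totals without scaling gave a median over all genes of 0.11 at day 10 and -0.15 in BAR over time, T cell reference scaling 0.35 at day 14 and -0.33 in BMF over time. The cause of these changes was not tested.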
